A study of Mus musculus with 9 samples.

Results

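The genes that take up, make and break down arginine were followed in C1498 cells, a line known as a mouse acute myeloid leukaemia. A lentivirus had delivered GFP to them together with a short hairpin RNA against Zeb1 or a negative control construct. The genes were chosen by name: Arg1, Arg2, Nos2, Odc1, Slc7a1, Slc7a2, Ass1, Asl and Oat. Of these 9 genes, 8 had a named probe set, 1 each, among the 19572 named probe sets of the array (19505 genes), and Ass1 was not analysed here. The groups were shZeb1_C (hairpin sequence C), shZeb1_D (hairpin sequence D) and Scr (the negative control), with 3 arrays each. All 9 arrays therefore carried RNA from infected, GFP-positive cells, isolated 2 weeks after infection. Nothing in the labels ties the 3 arrays of a group to infections of their own. The p-values therefore cover only the differences among these 9 RNA samples, possibly technical ones and precision is limited by how few arrays there are. The series title is about Zeb1 and the suppression of T cells by leukaemia, and arginine supply is a known route by which myeloid cells affect T cells.

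Arginine enters cells mainly through cationic amino acid transporters. Arginases split it into ornithine and urea, and nitric oxide synthases turn it into nitric oxide and citrulline, which argininosuccinate synthase and lyase can return to arginine. Ornithine feeds polyamine synthesis through ornithine decarboxylase and proline synthesis through ornithine aminotransferase. Arginase from tumour-associated myeloid cells is known for depleting the arginine that T cells need to divide.

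Values are log2 RMA signals, in which a difference of 1 is a doubling, and levels are not compared between genes because probe sets differ in their response. Tests are limma's moderated test on all 9 arrays, with Benjamini-Hochberg adjustment over the 19572 probe sets and a call at an adjusted p under 0.05. Zeb1 itself read 10.41, 10.01 and 10.34 on the shZeb1_C arrays and 9.56, 9.26 and 9.40 on the shZeb1_D arrays, against 10.52, 10.29 and 10.56 on the Scr arrays. The shZeb1_D arrays stood below all others, at 48.3% of Scr (limma adjusted p = 0.0263), while shZeb1_C overlapped Scr at 86.9% (limma adjusted p = 0.895). For the mean of both hairpins Zeb1 was at 64.8% of Scr and was not called (limma adjusted p = 0.104). The Zeb1 call in shZeb1_D was lost when Scr 7, 8 or 9 or shZeb1_D 14 or 15 was left out (limma adjusted p = 0.0502 to 0.157), with log2 fold changes of -1.13 to -0.98 in those fits. Differences of shZeb1_C from Scr below are therefore those of the arrays labelled shZeb1_C, in which little loss of Zeb1 was measured. Of the haematopoietic markers, 4 of 5 lay above the median level of 7.10 on average (Ptprc, Lcp1, Coro1a and Cd44), as did 4 of 8 T cell markers (Cd3d, Cd3e, Cd3g and Cd4). Cd44 did so only through the hairpin arrays, with means of 10.54 in shZeb1_C and 8.52 in shZeb1_D, against 7.06 in Scr. In shZeb1_C 1 of the 5 haematopoietic markers was called higher, where 0.659% of all probe sets were. Of 7 monocyte and macrophage markers 1 lay above the median level on average, Fcgr1, while Adgre1, Csf1r, Cd14, Lyz2, Itgam and Mertk lay below. Of 7 neutrophil and granulocyte precursor markers, 1 lay above the median level, Mpo. Against that level of 7.10, the means over the 9 arrays were 15.51 for Cd3g, 14.46 for Cd3e and 11.91 for Cd3d. They were 5.38 for Csf1r, 5.64 for Cd14 and 6.48 for Itgam. These markers do not bear out a myeloid identity, and the type of the cells was not tested. The arrays Scr 8, shZeb1_C 12, shZeb1_D 14 and shZeb1_D 15 stood on one side of the first principal component of the deviations from group means, which held 57.9% of that variation, and results are given below without them where they matter.

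Arg1, the cytosolic arginase, was the member with the lowest fold changes with both hairpins, but neither difference passed the test. It read 9.19, 9.86 and 7.49 on the shZeb1_C arrays, 7.69, 9.77 and 8.42 on the shZeb1_D arrays, and 10.65, 12.15 and 11.25 on the Scr arrays. All 6 hairpin arrays lay below all 3 Scr arrays, and the highest hairpin array was 9.86 against 10.65 for the lowest Scr array. The arrays of a group also lay far apart.

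The mean of Arg1 was 8.85 ± 1.22 in shZeb1_C and 8.63 ± 1.06 in shZeb1_D, against 11.35 ± 0.75 in Scr (SD, n = 3 each). The log2 fold change was -2.50 ± 0.69 (SE) for shZeb1_C, which puts its geometric mean at 17.6% of Scr, with limma adjusted p = 0.192. For shZeb1_D it was -2.72 ± 0.69, or 15.1% of Scr, with limma adjusted p = 0.132. The mean of both hairpins differed from Scr by -2.61 ± 0.60 (limma adjusted p = 0.105). The unadjusted 95% intervals ran from -4.06 to -0.95 for shZeb1_C and from -4.28 to -1.17 for shZeb1_D. Both comparisons use the same Scr arrays.

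In exact two-sided permutation tests over arrays, Arg1 gave p = 0.10 for each hairpin against Scr, the smallest that 3 arrays against 3 allow. With the 6 hairpin arrays set against the 3 Scr arrays, the exact permutation p was 0.0238, also the smallest possible, with the Arg1 difference in 6 of 6 hairpin arrays. After Benjamini-Hochberg adjustment over the 4 Arg1 comparisons, these exact permutation values were 0.133, 0.133 and 0.0952. Groups that do not overlap fix these p-values at their smallest, Arg1 was tested with its values known, and the adjustment does not cover its choice among the 8 genes, so they add no support. The hairpins did not separate from each other, with a difference of shZeb1_D minus shZeb1_C of -0.22 ± 0.69, a 95% interval of -1.77 to 1.33 and limma adjusted p = 0.929. That interval does not show that the hairpins act alike.

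Few probe sets had a log2 fold change as low as that of Arg1, and few had as large a spread. Increases of that size were not counted. A log2 fold change of -2.50 or lower occurred for 9 of the 19572 probe sets in shZeb1_C (0.046%), Arg1 included, and one of -2.72 or lower for 11 probe sets in shZeb1_D (0.0562%). Of those, 6 of 9 and 8 of 11 were called, and Arg1 was among the uncalled ones in both. Its within-group SD was 1.03, against a median of 0.26 over all probe sets, and 0.95% of probe sets had a larger one. The largest unadjusted p that led to a call was 4.68e-04 in shZeb1_C and 4.19e-04 in shZeb1_D, while Arg1 had 0.0053 and 0.00323.

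**Figure D1:**
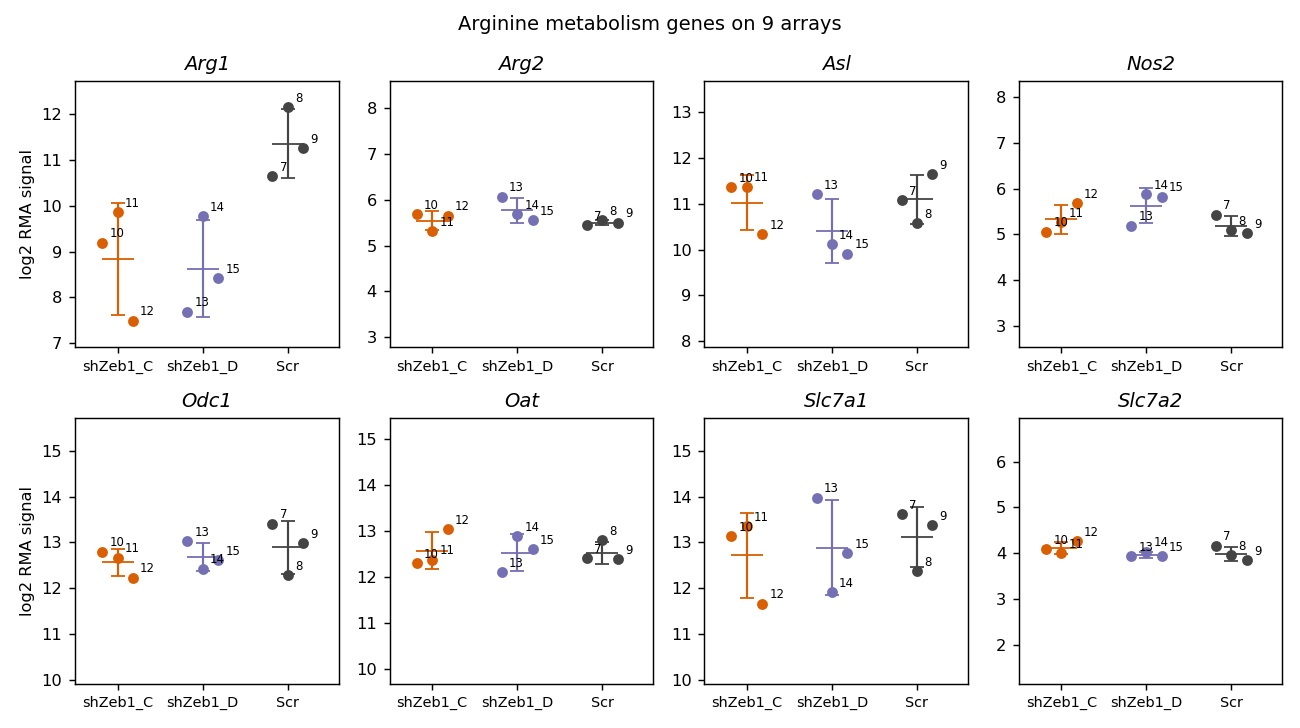
Log2 RMA signal of the 8 measured genes on each array (points, labelled with the replicate number), with mean and SD per group (bars, n = 3). Every panel spans the same number of log2 units around its own centre. Arg1 lies at 7.49 to 9.86 on the 6 hairpin arrays and at 10.65 to 12.15 on the Scr arrays, and the groups of the other genes overlap.

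Leaving out single arrays moved the Arg1 fold change between -3.01 and -1.83 for shZeb1_C and between -3.30 and -2.26 for shZeb1_D, with no call in any of these fits. The value without shZeb1_C 12, the array with the lowest Arg1, was -1.83 (limma adjusted p = 0.379). Without the 4 arrays that stand apart, the difference was -1.43 in shZeb1_C (limma adjusted p = 0.0543) and -3.26 in shZeb1_D (limma adjusted p = 0.0104), the last resting on the single array shZeb1_D 13. With limma's array weights, the shZeb1_D difference of -2.44 was called (limma adjusted p = 0.0367) and the shZeb1_C difference of -1.93 was not (limma adjusted p = 0.0715).

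Other cells known to hold much arginase 1 are hepatocytes and macrophages, and the levels of their markers are given here beside Arg1. The summed linear signal of 7 macrophage and monocyte markers was 878 to 2050 on the shZeb1_C arrays and 811 to 833 on the shZeb1_D arrays, against 649 to 677 on the Scr arrays, and 1 of the 7, Fcgr1, lay above the median level. For 6 hepatocyte markers the sums were 443 to 509 in shZeb1_C and 463 to 649 in shZeb1_D, against 503 to 504 in Scr. Fcgr1, an Fc receptor of monocytes, made most of the difference in the macrophage sums, at 8.79, 9.12 and 10.65 in shZeb1_C and 8.68, 8.45 and 8.34 in shZeb1_D, against 7.84, 7.93 and 7.87 in Scr. Without Fcgr1 the other 6 markers summed to 435 to 496 in shZeb1_C and 401 to 493 in shZeb1_D, against 405 to 448 in Scr, ranges that overlap. Fcgr1 was left out after its values had been seen. The other 6 all lay below the median level on average, so the overlap of their sums says little about such cells. The part of such cells in the Arg1 difference was not tested. In RNA from a cell population, fewer cells that express a gene and less RNA per cell cannot be told apart.

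For the second arginase no difference was called either. Arg2, the mitochondrial arginase, read 5.68, 5.31 and 5.65 on the shZeb1_C arrays and 6.07, 5.68 and 5.55 on the shZeb1_D arrays, against 5.45, 5.55 and 5.50 on the Scr arrays. The groups overlapped, and the signal was dim, below the median level on every array. The log2 fold changes were 0.05 ± 0.18 and 0.27 ± 0.18 (SE; limma adjusted p = 0.998 and 0.541).

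Nos2, the inducible nitric oxide synthase that competes with arginase for arginine, was dim too. It read 5.06, 5.26 and 5.68 on the shZeb1_C arrays and 5.19, 5.87 and 5.82 on the shZeb1_D arrays, against 5.43, 5.09 and 5.02 on the Scr arrays. Arrays shZeb1_D 14 and 15 were the highest, but shZeb1_D 13 lay within the Scr range. The log2 fold changes were 0.15 ± 0.24 and 0.45 ± 0.24 (SE; limma adjusted p = 0.992 and 0.451). Arrays shZeb1_D 14 and 15 are both among the 4 that stand apart. Without those 4, the shZeb1_D value of Nos2 was -0.03, with 1 shZeb1_D array left.

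Asl, argininosuccinate lyase, which releases arginine in the last step of its synthesis, was bright and varied within groups. It read 11.36, 11.37 and 10.34 on the shZeb1_C arrays and 11.20, 10.11 and 9.91 on the shZeb1_D arrays, against 11.08, 10.57 and 11.64 on the Scr arrays. A pair of shZeb1_D arrays lay below all Scr arrays and the third lay inside their range. The log2 fold change was -0.07 ± 0.42 in shZeb1_C and -0.69 ± 0.42 in shZeb1_D (SE; limma adjusted p = 0.998 and 0.508). The shZeb1_D value of Asl was -0.16 without the 4 arrays that stand apart (limma adjusted p = 0.838), -1.14 with array weights (limma adjusted p = 0.0726), and -1.09 to -0.42 with single arrays left out.

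Slc7a1, the main cationic amino acid transporter of dividing cells, read 13.14, 13.36 and 11.66 on the shZeb1_C arrays and 13.98, 11.92 and 12.76 on the shZeb1_D arrays, against 13.61, 12.37 and 13.38 on the Scr arrays. Its spread within groups (SD 0.92 in shZeb1_C, 1.04 in shZeb1_D and 0.66 in Scr) was larger than either difference from Scr, -0.40 ± 0.60 and -0.23 ± 0.60 (SE; limma adjusted p = 0.991 and 0.897). Slc7a2, the transporter that activated macrophages add, read 3.93 to 4.26 on the hairpin arrays and 3.85 to 4.16 on the Scr arrays, near the lowest value in the table, 3.26. The log2 fold changes of Slc7a2 were 0.13 and -0.02.

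Odc1, ornithine decarboxylase, the first enzyme of polyamine synthesis, read 12.80, 12.67 and 12.23 on the shZeb1_C arrays and 13.03, 12.43 and 12.61 on the shZeb1_D arrays, against 13.41, 12.28 and 12.98 on the Scr arrays. The groups overlapped, with log2 fold changes of -0.32 ± 0.30 and -0.20 ± 0.30 (SE; limma adjusted p = 0.928 and 0.805). Oat, ornithine aminotransferase, had the smallest differences of the bright genes. It read 12.30, 12.37 and 13.04 on the shZeb1_C arrays and 12.10, 12.89 and 12.60 on the shZeb1_D arrays, against 12.40, 12.80 and 12.38 on the Scr arrays, with log2 fold changes of 0.04 ± 0.26 and 0.00 ± 0.26 and 95% intervals within -0.59 to 0.64.

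In all, limma called 0 of the 8 genes in shZeb1_C, where 0.945% of all probe sets were called, and 0 of 8 in shZeb1_D, where 0.843% were. It called 0 of 8 for the mean of both hairpins (0.828% of all) and 0 of 8 between the hairpins (0.848% of all). At an unadjusted p under 0.05, 1 of 8 passed with each hairpin, Arg1, against 8.77% of all probe sets in shZeb1_C and 13.6% in shZeb1_D, and 0 of 8 passed between the hairpins (11.7% of all). Arg1 was also the 1 of 8 whose arrays did not overlap with Scr, a pattern of 14.2% of all probe sets in shZeb1_C and 17% in shZeb1_D. For both hairpins together it was again 1 of 8, Arg1, against 4.71% of all probe sets without overlap and 11% at an unadjusted p under 0.05. The median log2 fold change of the 8 was -0.02 in shZeb1_C and -0.11 in shZeb1_D, against medians of 0 and 0.043 over all probe sets.

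**Figure D2:**
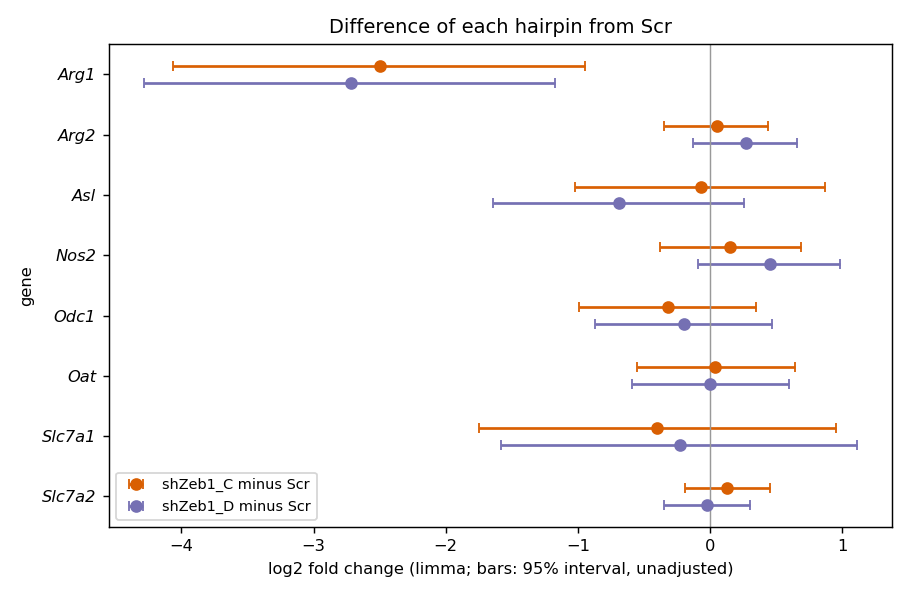
Log2 fold change of each gene for shZeb1_C minus Scr and shZeb1_D minus Scr (points) with unadjusted 95% intervals from limma (bars). Only the Arg1 intervals, -4.06 to -0.95 and -4.28 to -1.17, lie wholly on one side of 0, and neither difference passed the adjusted test.

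Among the bright genes other than Arg1, the arrays of a group differed more than the groups did, and several genes did so on the same arrays. Group membership held 68.4% of the variance of Arg1 over the 9 arrays, but 4.88% for Slc7a1, 13.6% for Odc1, 27.8% for Asl and 0.454% for Oat, against a median of 28.3% over all probe sets. Slc7a1 and Odc1 had their lowest array of each group on Scr 8, shZeb1_C 12 and shZeb1_D 14, and Oat had its highest on the same 3. Asl was lowest on Scr 8 and shZeb1_C 12 too, but on shZeb1_D 15 in the third group. This order was common on these arrays: 10.2% of all probe sets were lowest on those 3 arrays and 13% were highest.

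The order was chosen after the values had been seen and is a description without a test. Among the 128 measured genes of the 11 wider lists below, 27 (21.1%) were lowest on Scr 8, shZeb1_C 12 and shZeb1_D 14 and 13 (10.2%) were highest. These counts include Slc7a1, Odc1 and Oat, already named above with this order, so they are not separate from it. The 27 included the other transporter genes Slc7a5, Slc7a6 and Slc3a2, the heavy chain they pair with, and Aldh18a1, which makes the precursor of proline and ornithine from glutamate. Aldh18a1 read 12.40, 12.36 and 9.21 in shZeb1_C and 12.27, 9.71 and 10.55 in shZeb1_D, against 12.18, 10.90 and 12.30 in Scr. Those highest on the 3 arrays included Sat1, the enzyme that starts polyamine breakdown, at 12.87, 12.83 and 14.76 in shZeb1_C and 12.50, 14.23 and 13.54 in shZeb1_D, against 12.37, 13.39 and 12.41 in Scr. Arg1 had another order, highest of its group on Scr 8 and shZeb1_D 14 but lowest on shZeb1_C 12. These genes were picked for naming after their values had been seen.

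**Figure D3:**
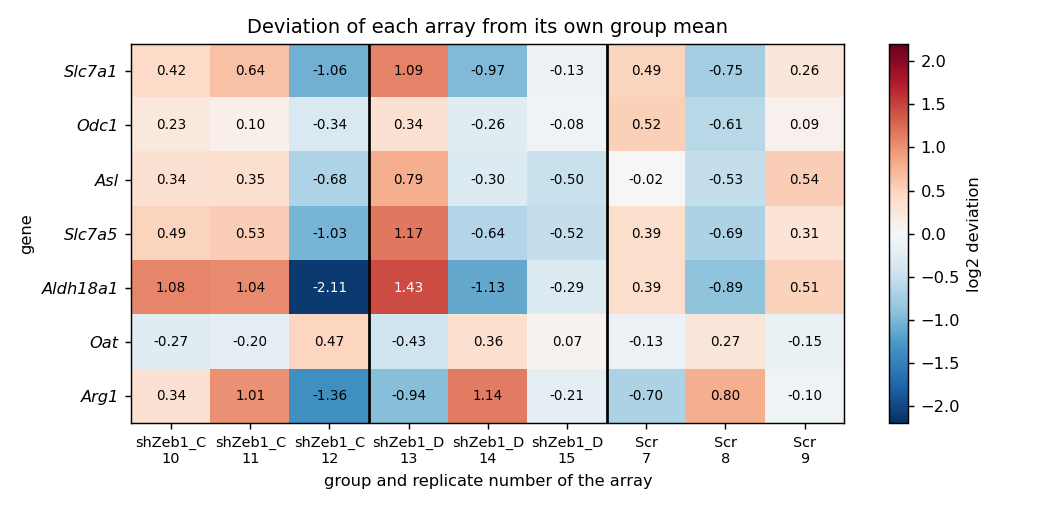
Log2 deviation of each array from the mean of its own group for 7 genes (rows), with the arrays of shZeb1_C, shZeb1_D and Scr in columns. Slc7a1, Odc1, Asl, Slc7a5 and Aldh18a1 are below their group mean on shZeb1_C 12, shZeb1_D 14 and 15 and Scr 8, Oat is above it there, and Arg1 follows neither.

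RefSeq promoter windows (GRCm38.p6, 250 bases before to 50 after a start site) matched 3 of the 8 genes, Odc1, Slc7a1 and Oat. The other measured genes had no window in the reference used. They are shown 5′ to 3′ on the gene's strand, with GC boxes (GGGCGG, or CCGCCC on the other strand) and CCAAT boxes (CCAAT, or ATTGG) in capitals. The windows are Odc1, chr12:17544623-17544922, plus strand, Slc7a1, chr5:148399855-148400154, minus strand, and Oat, chr7:132576349-132576648, minus strand.
Odc1: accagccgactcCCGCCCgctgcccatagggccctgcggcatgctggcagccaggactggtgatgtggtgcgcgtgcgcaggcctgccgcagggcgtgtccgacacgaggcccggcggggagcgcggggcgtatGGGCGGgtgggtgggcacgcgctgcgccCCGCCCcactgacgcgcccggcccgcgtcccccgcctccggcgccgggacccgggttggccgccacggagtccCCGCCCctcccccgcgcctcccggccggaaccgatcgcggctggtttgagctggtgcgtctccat
Slc7a1: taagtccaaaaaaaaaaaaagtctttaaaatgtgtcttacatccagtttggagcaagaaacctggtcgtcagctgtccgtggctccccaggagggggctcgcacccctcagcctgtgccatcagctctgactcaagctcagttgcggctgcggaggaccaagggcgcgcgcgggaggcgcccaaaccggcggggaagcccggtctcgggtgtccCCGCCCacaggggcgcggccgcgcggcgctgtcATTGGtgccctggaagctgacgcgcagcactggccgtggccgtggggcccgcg
Oat: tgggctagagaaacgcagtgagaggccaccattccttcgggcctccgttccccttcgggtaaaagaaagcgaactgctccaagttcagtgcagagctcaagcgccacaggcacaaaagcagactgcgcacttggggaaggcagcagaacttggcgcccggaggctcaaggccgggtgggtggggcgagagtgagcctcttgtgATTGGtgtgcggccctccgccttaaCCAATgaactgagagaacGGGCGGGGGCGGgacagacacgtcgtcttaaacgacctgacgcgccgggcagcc
A GC box stood in each of these windows, 4 in Odc1, 1 in Slc7a1 and 2 in Oat, and in 35.7% of all 32851 windows. A CCAAT box stood in Slc7a1 and Oat, and in 37.4% of all windows. The E-box letters CAGGTG (or CACCTG on the other strand), a known Zeb1 motif, and the Myc-type E-box CACGTG were in none of these 3 windows nor in the second Slc7a1 window of the table. They were in 20.2% and 7.15% of all windows. A match is a run of letters and not a measured site.

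The neighbours of these genes on their chromosomes were set beside them. For the nearest genes above the median level, 25 on each side in the order of the RefSeq table (40 in all for Slc7a1, near the end of chromosome 5), the median log2 fold change around Arg1 (chromosome 10) was -0.10 in shZeb1_C and 0.05 in shZeb1_D. Around Arg2 (chromosome 12) it was -0.58 in shZeb1_C, with 45 of 50 lower, and -0.18 in shZeb1_D, while Arg2 itself had 0.05 and 0.27. Around Asl (chromosome 5) it was -0.05 and -0.27. Around Nos2, Odc1, Slc7a1, Slc7a2 and Oat it lay between -0.12 and 0.03 in shZeb1_C and between -0.21 and 0.12 in shZeb1_D.

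The genes whose values were most like those of Arg1 over the 9 arrays were sought among 5821 probe sets above the median level with a range of at least 1. The highest Pearson's r were 0.936 for Taf1b, a factor of RNA polymerase I initiation, 0.931 for Mgat2, an enzyme of N-glycan synthesis, 0.922 for Ydjc, 0.921 for Urod, a haem synthesis enzyme, and 0.909 for Lgmn, the lysosomal protease legumain. Part of each r comes from the group means the arrays share, and r is given as a description. Lgmn read 11.61, 12.13 and 10.07 in shZeb1_C and 10.80, 11.53 and 10.61 in shZeb1_D, against 12.77, 12.40 and 12.65 in Scr, log2 fold changes of -1.34 and -1.63 that were not called (limma adjusted p = 0.367 and 0.185).

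Wider lists around the pathway held 141 genes, of which 128 were measured. In shZeb1_C 0 rose and 0 fell, where 0.659% of all probe sets rose and 0.286% fell, with 10 (7.81%) at an unadjusted p under 0.05, against 8.77% of all probe sets. In shZeb1_D 0 rose and 1 fell, Il4ra, where 0.399% of all rose and 0.445% fell, with 20 (15.6%) at an unadjusted p under 0.05, against 13.6% of all. For the mean of both hairpins 0 rose and 1 fell, again Il4ra (limma adjusted p = 0.0317), where 0.465% of all rose and 0.363% fell. That call was lost when Scr 7, Scr 9, shZeb1_C 10, shZeb1_C 11, shZeb1_D 14 or shZeb1_D 15 was left out (limma adjusted p = 0.0596 to 0.185). Between the hairpins 0 rose and 0 fell, where 0.307% of all rose and 0.542% fell. All 6 hairpin arrays lay on one side of the Scr arrays for 6 of the 128 (4.69%), against 4.71% of all probe sets. The median log2 fold change of the 128 was -0.07 in shZeb1_C and -0.06 in shZeb1_D.

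Il4ra, the receptor chain through which interleukins 4 and 13 induce Arg1 in macrophages, read 10.49, 10.58 and 9.94 on the shZeb1_C arrays and 9.36, 8.57 and 8.97 on the shZeb1_D arrays, against 11.49, 10.71 and 11.97 on the Scr arrays. All 6 hairpin arrays lay below the 3 Scr arrays, and the shZeb1_D arrays below those of shZeb1_C. Il4ra fell in shZeb1_D, to 18.6% of Scr, with a log2 fold change of -2.42 ± 0.34 and limma adjusted p = 0.0205. In shZeb1_C the log2 fold change was -1.05 ± 0.34 (limma adjusted p = 0.291). The shZeb1_D minus shZeb1_C difference of -1.37 ± 0.34 was not called (limma adjusted p = 0.129). Il4ra was lowest of each group on Scr 8, shZeb1_C 12 and shZeb1_D 14, as were 10.2% of all probe sets. Its shZeb1_D log2 fold change was -2.37 without the 4 arrays that stand apart, with 1 shZeb1_D array left. Without the 5 other arrays it was -1.94, with 1 Scr array left. Il4ra in shZeb1_D was no longer called without Scr 7 (limma adjusted p = 0.0718), Scr 9 (0.0837), shZeb1_D 14 (0.0565) or shZeb1_D 15 (0.0961), with fold changes of -2.76 to -2.13 over the fits that each left out 1 array.

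Of the other 22 measured signals and factors known to act on Arg1, 0 were called with either hairpin. Tgfb1, a cytokine known to raise arginase in myeloid cells, had log2 fold changes of -0.37 and -1.24 (limma adjusted p = 0.885 and 0.104). Its receptor genes went the other way in sign, Tgfbr1 with 1.32 and 0.33 (limma adjusted p = 0.294 and 0.771) and Tgfbr2 with 0.68 and 0.29 (limma adjusted p = 0.241 and 0.57), and on both the shZeb1_C arrays lay above all Scr arrays. Stat6, which carries the interleukin 4 signal, read 11.51, 11.30 and 9.95 in shZeb1_C and 11.48, 10.05 and 10.42 in shZeb1_D, against 11.50, 10.90 and 11.88 in Scr. Cebpb, a factor at the Arg1 enhancer, was dim at 4.95 to 5.47 on the hairpin arrays and 5.16 to 5.36 on the Scr arrays. Of 15 genes of alternative macrophage activation, a programme of which Arg1 is a marker, 0 rose and 0 fell, 2 lay above the median level, and the median log2 fold change was 0.10 in shZeb1_C and 0.06 in shZeb1_D. The brighter ones were the lectin genes Clec10a, at 8.74 to 9.80 on the hairpin arrays and 8.86 to 9.21 on the Scr arrays, and Mrc1. Mrc1 read 7.68, 7.94 and 7.53 in shZeb1_C and 7.92, 8.31 and 8.40 in shZeb1_D, against 7.63, 7.29 and 7.07 in Scr, log2 fold changes of 0.39 and 0.88 that were not called (limma adjusted p = 0.696 and 0.107). Chil3 and Retnla, also of that programme, stayed at or below 5.22 on every array.

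Of 9 urea cycle and arginine synthesis genes 0 were called with either hairpin, and the liver enzymes Cps1 and Otc were dim. Slc25a13, the mitochondrial aspartate and glutamate carrier, had a log2 fold change of -0.90 ± 0.28 in shZeb1_D (SE; limma adjusted p = 0.209). Of 12 nitric oxide and tetrahydrobiopterin genes 0 were called. Gch1, which starts synthesis of the tetrahydrobiopterin that nitric oxide synthases need, read 12.81, 12.33 and 14.22 in shZeb1_C and 11.17, 11.78 and 12.52 in shZeb1_D, against 11.70, 12.19 and 11.18 in Scr, a log2 fold change of 1.43 ± 0.51 in shZeb1_C (SE; limma adjusted p = 0.377). All shZeb1_C arrays of Gch1 lay above the Scr arrays, and the shZeb1_D arrays overlapped them.

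Of 19 genes of polyamines and of the hypusine modification of eIF5A 0 were called. Dohh, which completes that modification, read 10.34, 10.18 and 9.60 in shZeb1_C and 9.69, 9.65 and 9.22 in shZeb1_D, against 10.47, 10.40 and 10.73 in Scr. All 6 hairpin arrays lay below Scr, with log2 fold changes of -0.49 and -1.01 (limma adjusted p = 0.592 and 0.0945). Oaz2, an antizyme that sends ornithine decarboxylase to the proteasome, had log2 fold changes of -0.72 and -1.35 (limma adjusted p = 0.64 and 0.14).

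Of 13 genes listed under cationic and large neutral amino acid transport 0 were called. Slc7a11, listed there although it is the cystine importer, came nearest. It read 9.75, 8.70 and 9.78 in shZeb1_C and 9.09, 8.27 and 7.90 in shZeb1_D, against 10.20, 10.10 and 10.21 in Scr. All 6 hairpin arrays lay below Scr, and the log2 fold change in shZeb1_D was -1.75 ± 0.35 (SE; limma adjusted p = 0.0687). Of 14 genes of the response to amino acid shortage 0 were called, with a median log2 fold change of -0.11 in shZeb1_C and -0.07 in shZeb1_D. Asns, asparagine synthetase, a marker of that response, read 15.60, 15.78 and 15.03 in shZeb1_C and 15.75, 15.51 and 15.83 in shZeb1_D, against 15.92, 15.61 and 15.63 in Scr.

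Of 11 genes of protein arginine methylation and arginyl transfer 0 were called, 9 were lower in shZeb1_C and 10 in shZeb1_D, with medians of -0.34 and -0.39 against 0 and 0.043 over all probe sets. The share of all probe sets that were lower is not given here. Carm1 was lowest of each group on Scr 8 (14.19), shZeb1_C 12 (14.14) and shZeb1_D 14 (13.92), which are among the arrays that stand apart. Prmt1 was lowest in shZeb1_D on shZeb1_D 13 (10.83), which is not. The medians of this list were not taken without the arrays that stand apart. Prmt1, the main protein arginine methyltransferase, had log2 fold changes of -0.40 and -1.09 (limma adjusted p = 0.81 and 0.104). Of 5 genes of ornithine to proline and glutamate, 3 of creatine and 4 of arginine sensing, 0 were called, with medians of 0.04, -0.03 and 0.05 in shZeb1_C and 0.00, -0.13 and 0.51 in shZeb1_D. Apart from Il4ra, the list genes given with values were picked after their values had been seen.

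**Figure D4:**
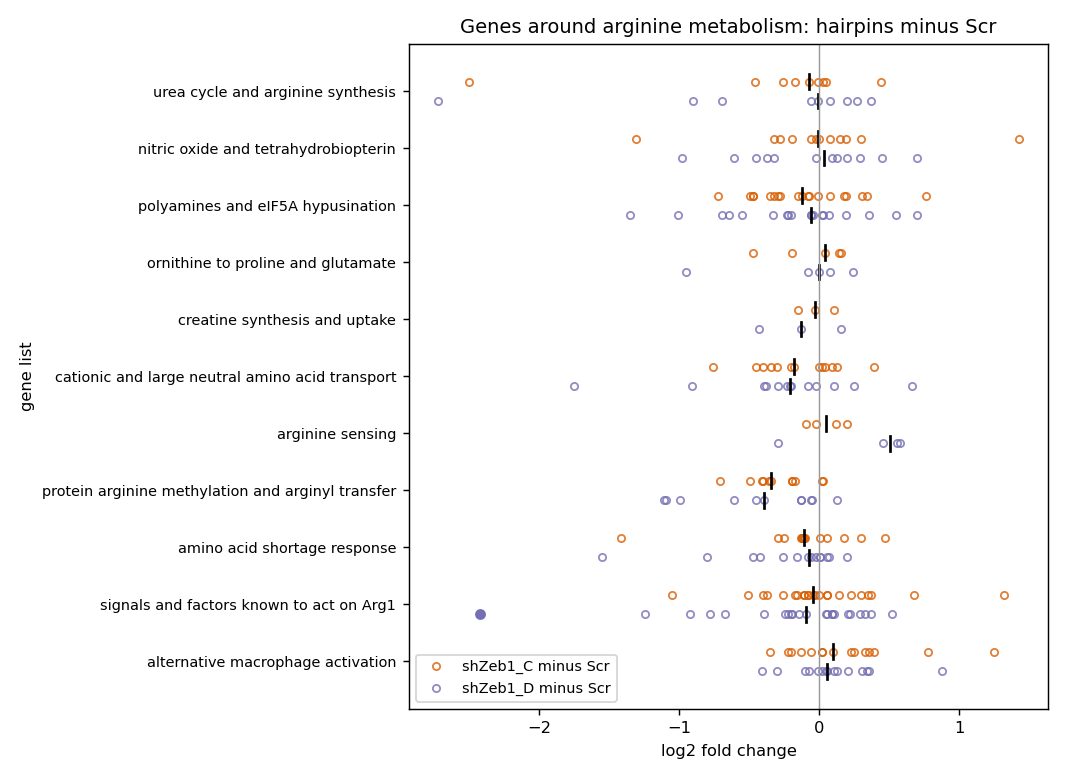
Log2 fold change of every measured gene of the 11 lists for shZeb1_C minus Scr and shZeb1_D minus Scr (circles), with the list's median (black bars). Filled circles passed limma's test at an adjusted p under 0.05. The 1 filled circle is Il4ra in shZeb1_D, and Arg1 is an open circle at -2.50 and -2.72.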

How the data were processed

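Each of the 9 samples of total RNA was labelled with biotin, per the labels, and read on its own 1-colour array. RMA and the Transcriptome Analysis Console are the tools in the submitters' processing notes, and versions are not given in the sources used here. The values the authors deposited are scores without a usable unit, since the linear RMA signals lost the decimal point. All 199854 values were turned back to log2 by placing the point where log2 is a multiple of 0.01, within 1e-06 steps (farthest accepted 1.1e-12, nearest rejected 0.036). No 2 arrays were identical. Platform annotation gave 19572 of 22206 probe sets 1 symbol, updated through the RefSeq table of GRCm38.p6. A gene was read from its probe set with the highest mean.

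limma 3.58.1 in R 4.3.3 was fitted to all 9 arrays with a mean per group, adjusted by Benjamini-Hochberg within each comparison. On simulated data for shZeb1_C against Scr (19572 probe sets, 200 changed, 5 runs) it recovered 38.4%, 82% and 97.6% of log2 changes of 1, 2 and 4, and 2% of changes of 0.5. These shares are averages over the simulated probe sets. They give no rate for a gene as variable as Arg1 (within-group SD 1.03, against a median of 0.26). Zeb1, the listed genes, called genes of the lists, and the 5 genes most like Arg1 were to be named. The genes, lists and tests were chosen with earlier results of these data known. The alternatives were a filter on dim probe sets, 2 further normalizations, another variance prior, fits to the compared groups alone, array weights, means over a gene's probe sets and omission of each array in turn. Leaving out sets of arrays was added after seeing the data.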

Additional observations from a re-analysis of the deposited data

How the results depend on the processing

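No paired analysis was possible because the groups share no replicate number. Leaving out sets of arrays was chosen after seeing the data. Without the 5 other arrays, Scr and shZeb1_C keep 1 array each and the spread comes from 2 shZeb1_D arrays, so those values say little. Arg1 was called, making 1 of the 8 genes called, with array weights at -2.44 in shZeb1_D and -2.19 for the mean of both hairpins, and without the 4 arrays that stand apart at -3.26 and -2.34, where 1 array of shZeb1_D is left and is assumed to vary like the others. Between the hairpins its difference was -1.83 without the 4 arrays and 1.61 without the 5 other arrays. It ran from -0.90 to 0.29 with single arrays left out. Array weights called 572 probe sets in shZeb1_C, 1076 in shZeb1_D, 639 for the mean and 833 between the hairpins. Without the 4 arrays the counts were 424 in shZeb1_C, 273 in shZeb1_D and 379 for the mean, and without the 5 others 102 in shZeb1_C, 0 in shZeb1_D, 0 for the mean and 77 between the hairpins. With only the compared groups fitted, 68 were called in shZeb1_D and 81 between the hairpins. With single arrays left out, counts ran from 43 to 214 in shZeb1_C, from 14 to 213 in shZeb1_D, from 16 to 219 for the mean and from 49 to 162 between the hairpins. The causes were not tested.

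Signs turned among uncalled differences of the other genes. With array medians subtracted, Arg2 was -0.02 and Oat -0.03 in shZeb1_C, Oat -0.08 in shZeb1_D, and Oat -0.06 and Slc7a2 -0.03 for the mean. Quantile normalization put Oat at 0.08 in shZeb1_D. Array weights gave Oat -0.05 in shZeb1_C, Oat 0.17 and Slc7a2 0.01 in shZeb1_D, and Oat 0.22, Odc1 -0.08 and Slc7a1 -0.42 between the hairpins. Without the 4 arrays, Asl was 0.00, Nos2 -0.07 and Oat -0.06 in shZeb1_C, Nos2 -0.03, Oat -0.29 and Slc7a1 0.49 in shZeb1_D, and Nos2 -0.05, Oat -0.17, Slc7a1 0.12 and Slc7a2 -0.02 for the mean. Without the 5 others, Zeb1 was 0.05 in shZeb1_C, Oat -0.05, Odc1 0.24 and Slc7a2 0.03 in shZeb1_D, Odc1 0.10 for the mean and Arg2 -0.04 between the hairpins. With single arrays left out, shZeb1_C ran from -0.02 to 0.17 for Arg2, -0.34 to 0.27 for Asl, -0.02 to 0.29 for Nos2, -0.19 to 0.18 for Oat and -0.77 to 0.13 for Slc7a1. In shZeb1_D it ran from -0.18 to 0.22 for Oat, -0.50 to 0.06 for Odc1, -0.78 to 0.25 for Slc7a1 and -0.09 to 0.06 for Slc7a2. For the mean it ran from -0.09 to 0.16 for Oat, -0.57 to 0.00 for Odc1 and -0.01 to 0.14 for Slc7a2. Between the hairpins it ran from -0.22 to 0.20 for Oat, -0.05 to 0.25 for Odc1 and -0.38 to 0.65 for Slc7a1. The causes were not tested.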
